A study of Mus musculus with 2 samples.

Results

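The regions described here are peaks of ChIRP-seq that were called with the odd probes against *Gm19619*, overlap no peak of the even probes, and lie in introns of protein-coding genes. A peak was counted when its pileup, the number of extended reads stacked at the summit, was under 30, when it shared no base with an even peak, and when its summit lay in a protein-coding gene of GENCODE vM21, outside every annotated exon and more than 1000 bp from every protein-coding transcription start. On chromosomes 1 to 19, 5014 of the 13653 odd peaks met these conditions. Over all chromosomes the lists hold 17898 peaks, 14261 odd and 3637 even. The members were thus selected on pileup and on the lack of an even peak, and those 2 properties are given below as a description only. The hepatocytes came from wild-type female C57BL/6 mice of 8 weeks, pooled from 4 animals and fixed with 3% formaldehyde for 10 min. Their lysate was split between the odd-numbered and the even-numbered probes, and each set gave 1 library, so that no replicate error exists and no test between conditions was possible. No library without probes or with unrelated probes entered the comparison. After removal of duplicates the odd library kept 6972538 of 61155168 mapped reads (11.4%) and the even library 7052802 of 65783155 (10.7%).

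*Gm19619* is a nuclear long non-coding RNA of the mouse liver, transcribed from the minus strand of chromosome 5 (chr5:91257571-91283421, GRCm38, the build that mm10 names). In ChIRP, short biotinylated DNA oligonucleotides complementary to an RNA are hybridised to fixed, sonicated chromatin, and DNA that comes down with them is sequenced. The probes are split into sets with no sequence in common, because DNA held by the RNA should come down with either set, whereas DNA that a probe meets through its own bases comes down with that probe's set. Introns are the parts of a gene that are transcribed and then removed from its RNA, and in mammals they make up most of the length of long genes.

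The odd probes are the first sequences needed to read these peaks, since stretches of them recur inside the members. Of the 7 odd probes, 6 occur whole in the DNA of the *Gm19619* gene. Their sites are given as the genome holds them on the plus strand of GRCm38, which reads like the probe, while the RNA reads like the other strand.
Probe 1, chr5:91283023-91283042: aaggagagtgaagtggcagt
Probe 3, chr5:91273978-91273997: tgtgccatgtgaaagcagag
Probe 7, chr5:91258494-91258513: gggaactgagctgtgagatg
Probe 9, chr5:91258311-91258330: ctatgggttctggacagctc
Probe 11, chr5:91258104-91258123: tatctttgagcttcgagacc
Probe 13, chr5:91257895-91257914: cagatgatacgatgtcccaa

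The longest stretches of these probes inside members were 17 bases, in 5 peaks, followed by 16 bases in 11 peaks. The first 5 windows below hold those of 17 bases and the last 3 hold runs of 16 bases in peaks with a pileup of 29, taken in list order from the 4 such peaks of that height. They show how much of a probe an intron can hold without being the target gene. Each window is given 5′ to 3′ on the strand that reads like the probe, with 20 bases on either side, and capitals mark the bases shared with the probe.
*4933425L06Rik*, probe 3, chr13:105085770-105085826, minus strand: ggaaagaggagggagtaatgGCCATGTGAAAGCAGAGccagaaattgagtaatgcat
*Add2*, probe 3, chr6:86105314-86105370, minus strand: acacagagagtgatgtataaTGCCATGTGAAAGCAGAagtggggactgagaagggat
*Adcy5*, probe 1, chr16:35212087-35212143, minus strand: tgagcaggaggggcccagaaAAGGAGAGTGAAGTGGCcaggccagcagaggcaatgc
*Zfhx3*, probe 7, chr8:108673064-108673120, minus strand: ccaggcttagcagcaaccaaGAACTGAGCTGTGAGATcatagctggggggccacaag
*Ccdc93*, probe 3, chr1:121450597-121450653, plus strand: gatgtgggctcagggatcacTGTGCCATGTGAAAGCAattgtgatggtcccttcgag
*Shisa6*, probe 1, chr11:66452502-66452557, minus strand: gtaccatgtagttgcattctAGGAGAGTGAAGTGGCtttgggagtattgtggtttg
*Ric1*, probe 1, chr19:29540448-29540503, minus strand: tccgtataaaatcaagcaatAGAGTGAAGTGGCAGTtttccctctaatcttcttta
*Camta1*, probe 7, chr4:151841428-151841483, minus strand: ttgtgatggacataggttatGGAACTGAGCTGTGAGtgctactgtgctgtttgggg

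These 8 peaks had pileups between 12 and 29. The peak in *Adcy5*, which encodes an adenylyl cyclase, had a pileup of 22 and a summit 9 bp from the middle of the shared bases. In *Zfhx3*, a zinc finger and homeobox transcription factor gene, the pileup was 18 and the distance 8 bp. The peaks in *4933425L06Rik* and in *Add2*, which encodes the cytoskeletal protein beta-adducin, reached 28 and 23, with distances of 130 and 98 bp. The lowest of the 5 was that in *Ccdc93*, with a pileup of 12 and a distance of 35 bp. Those in *Shisa6*, *Ric1* and *Camta1* all had a pileup of 29, the highest value a member can have.

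Of the 5014 members, 1370 (27.3%, 95% Wilson interval 26.1 to 28.6) held a run of at least 12 consecutive bases of an odd probe, on either strand, and 7 (0.140%, 0.0676 to 0.288) held one of an even probe. All intervals of shares are Wilson intervals at 95% and cover counting error only. In windows of 269 bp around the summits, the median length of a member, 24.3% (23.1 to 25.5) held such a run. The same was true of 0.236% of 3194169 windows of 269 bp that tile the same introns, a 103-fold lower share. For the 4 even probes that occur whole in the gene, the share was 0.160% of member windows (0.0809 to 0.315) and 0.145% of the tiles. Intronic members thus held odd runs far above their frequency in introns and even runs at about that frequency. Members share no base with an even peak by selection, which also removes peaks over sites of even probes. The even share is therefore given as a description only and is no independent contrast to the odd share. With a run of at least 14 bases the shares were 4.65% of member windows and 0.0120% of tiles for odd probes. The members without any run of 10 bases numbered 2207 (44.0%), so that a large part of the peaks shared no such stretch with the 6 probes.

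The run share of introns was set beside that of odd-only peaks elsewhere, chosen by the same limits on pileup and overlap. Outside protein-coding genes, 1590 of 5946 peaks held a run (26.7%, 25.6 to 27.9), a difference of 0.58 percentage points from introns (95% Newcombe interval −1.08 to 2.25). Among 737 peaks in exons the share was 26.2%, lower than in introns by 1.14 points (−2.37 to 4.43). Among 731 peaks within 1000 bp of a transcription start it was 19.4% (16.7 to 22.5), which was 7.90 points below the intronic share (4.64 to 10.9). Introns and sequence outside genes were not distinguishable at this depth with runs of 12 bases, and with runs of 10 bases the difference was 2.67 points (0.80 to 4.54). Even-only peaks in introns numbered 1097. With the probes found whole in the gene, 6 odd and 4 even, 9.39% of them (7.80 to 11.3) held a run of their own probes, against 27.3% of the odd-only intronic peaks (difference 17.9 points, 15.7 to 19.95). When all 7 probes of each set were used, a setting chosen after the data were seen, the shares were 32.0% and 28.0% (difference −3.95 points, −7.03 to −0.98), so that the sign of the difference depended on which probes were counted. The odd probe not found whole, and some of the even ones, lack a letter of the paper's RNA sequence as read from the supplement. Even-only intronic peaks with a run numbered 103 with the 4 even probes and 351 with all 7. The 17.9-point difference thus compares incomplete probe sets and is no difference between the 2 sets as used.

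A second view starts from the sites instead of the peaks. Every stretch of an odd probe in the eligible introns was located, and those inside any odd peak, members or not, were counted. Of 108822 sites of exactly 10 bases, 0.991% lay in an odd peak, and of 24820 sites of 11 bases, 3.63%. The share was 10.7% of 6018 sites of 12 bases, 41.6% of 1447 sites of 13 and 75.0% of 300 sites of 14. It was 98.8% of 84 sites of 15 bases (93.6 to 99.8), and all 24 sites of 16 bases or more lay in an odd peak (86.2 to 100%). In the even list the same sites were found in 0.0997% of cases at 12 bases, 1.67% at 14 and 8.33%, which is 2 of 24, at 16 or more. Sites of even probes had a rise of the same kind in the even list, from 0.478% at 12 bases to 19.9% of 211 sites at 14 and 84.6% of 13 sites at 16 or more, and 0 of those 13 lay in an odd peak (upper limit 22.8%). In each list, the share of sites under a peak went up with the length shared with that list's own probes.

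**Figure D1:**
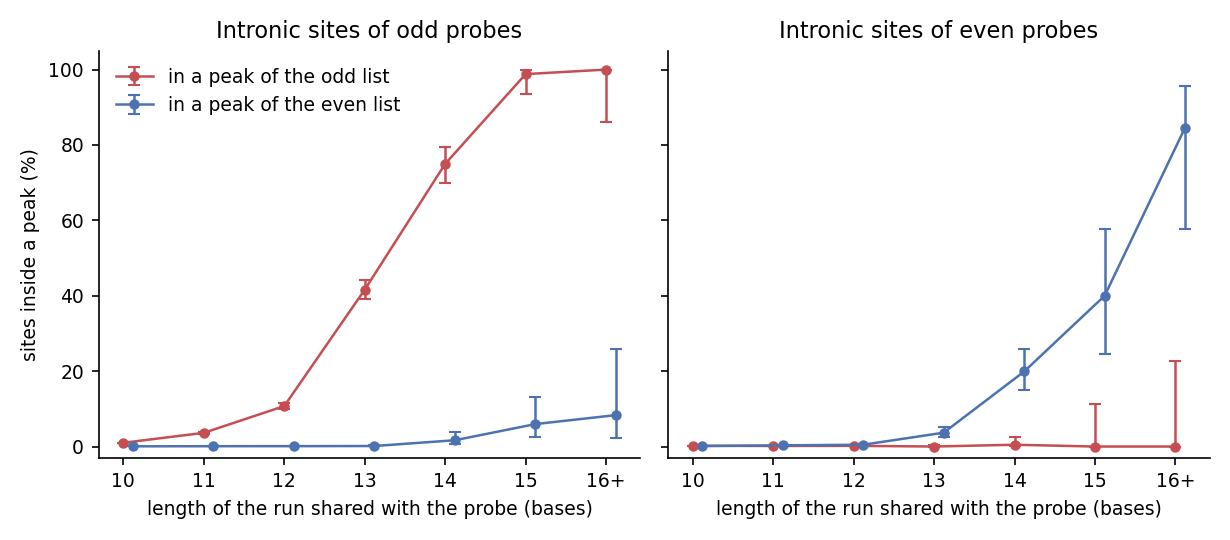
Share of intronic sites that lie inside a peak (%), by the number of consecutive bases shared with a probe, for sites of the odd probes (left) and of the even probes (right). Points are shares over all sites of that length, red for the odd and blue for the even list, with 95% Wilson intervals; the red curve on the left goes from 0.991% at 10 bases to 98.8% at 15.

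The probes were unequal. Among members, probe 7 gave a run of at least 12 bases in 565 peaks, probe 1 in 374, probe 9 in 204, probe 3 in 192, probe 11 in 33 and probe 13 in 7. The number of sites did not account for this order alone, since at exactly 12 bases probe 3 had 1292 intronic sites, of which 5.11% lay in an odd peak, and probe 1 had 1062, of which 17.6% did. Probe 7 had 1734 sites with 17.5%, probe 9 had 1312 with 5.79%, and probe 11 had 547 with 2.01%. Shares also differed between parts of a probe. The stretch gagtgaagtggc, bases 6 to 17 of probe 1, was all that was shared in 40 intronic sites, of which 57.5% (42.2 to 71.5) lay in an odd peak, and ggaactgagctg, bases 2 to 13 of probe 7, in 190 sites, of which 42.6% did (35.8 to 49.7). At the other end, agctgtgagatg, bases 9 to 20 of probe 7, had 225 sites, of which 2.22% did (0.953 to 5.09). Sites of 12 bases with at most 4 G or C lay in a peak in 1.21% of 248 cases, those with 5 in 4.37% of 1098, those with 6 in 8.14% of 3331 and those with 7 in 24.2% of 1341. Single stretches with 7 G or C still ranged from 0 to 57.5%.

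Words of 8 bases were then counted in the members' 269-bp windows and in the tiles of introns, on both strands, among words present in at least 50 members. All of the 20 words with the highest ratio were part of an odd probe and none of an even probe. The lack of words of even probes is a description only, since peaks that overlap an even peak were left out by the selection. The first was GAAGTGGC of probe 1, in 9.29% of members and 0.797% of tiles, an 11.7-fold ratio, and AACTGAGC of probe 7 was in 11.9% and 1.17% (10.2-fold). These words overlap one another within a probe, so they are not separate findings. In the 2140 members without a run of 10 bases of any odd probe, 8 of the first 20 words were still part of odd probes. There, GAAGTGGC led again, with 5.93% of members against the same 0.797% of tiles (7.45-fold), and GCCACTCA, in none of the probes, was in 3.79% against 0.861% (4.39-fold).

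Pileup, which was used to select the members, went up with the longest run. The median was 10 in the 2207 members without a run of 10 bases, 11 with 10 or 11 bases, 12 with 12, 13 with 13, 17 with 14 and 20 with 15. The 11 members with 16 bases had a median of 27 and the 5 with 17 bases a median of 22. In the other direction, 11.6% of the 474 members with a pileup of 5 to 7 held a run of 12 bases (9.02 to 14.8), against 48.1% of the 605 with 20 to 29 (44.1 to 52.1). The limit at 30 cut through a continuous range. At a pileup of 29, with a fold enrichment of 19.8, there were 40 members, of which 19 held a run, and at 30, with a fold enrichment of 20.4, there were 34 intronic odd-only peaks outside the selection, of which 20 did. In the members, fold enrichment, in which the authors divided the summit by the background level of the whole library, was between 3.96 and 19.8.

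**Figure D2:**
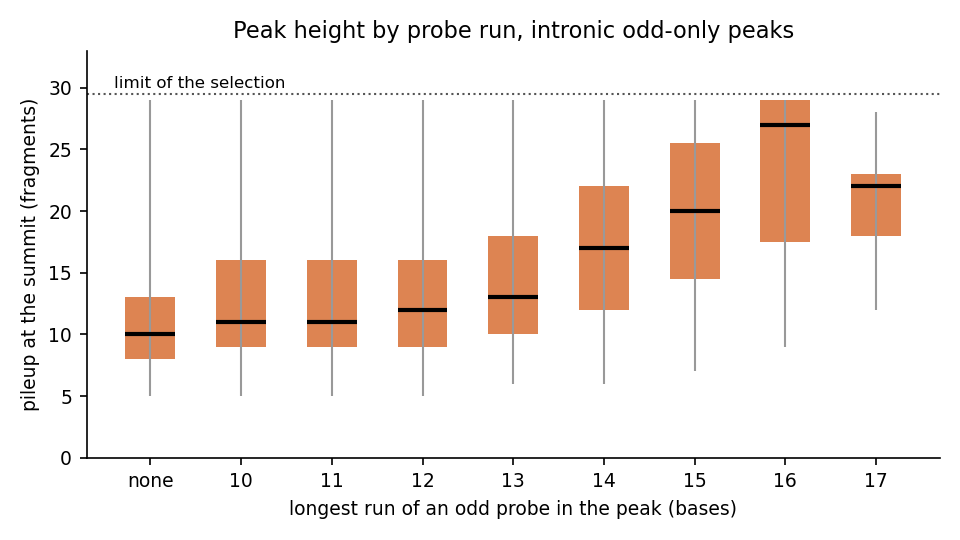
Pileup at the summit (extended reads) of the 5014 intronic odd-only peaks, by the longest run of an odd probe in the peak (bases; none means under 10). Boxes span the interquartile range, black lines are medians and thin lines run from lowest to highest; medians go from 10 without a run to 27 at 16 bases, below the limit set by the selection (dotted).

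The runs sat near the summits. In the 1370 members with a run of 12 bases, the median distance from the middle of the run to the summit was 59.5 bp, with 43.1% within 50 bp and 77.2% within 100 bp, while the distance from the middle of a peak to its end had a median of 164 bp. The summit itself fell inside the run in 129 members (9.42%).

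Runs lay slightly more often on the strand of the host gene. Among 1354 members whose hosts lie on 1 strand, 742 (54.8%, 52.1 to 57.4) had the run on the host's strand. There the RNA of the host gene would read like the probe, and in the rest it would be complementary to the probe. Counted by site, the share was 54.9% of 1344 sites inside members and 51.1% of 6228 intronic sites outside all odd peaks, a difference of 3.77 points (0.83 to 6.69). By probe the share inside members was 58.6% of 553 sites for probe 7 (54.4 to 62.6), 57.0% of 193 for probe 3, 52.6% of 363 for probe 1 and 48.2% of 197 for probe 9, and the last 3 intervals include 50%. The sites outside peaks, weighted to the members' mix of probes, gave 51.5%.

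Along genes the members were spread almost as introns are. On the representative transcript, 1282 of 4667 placed members (27.5%, 26.2 to 28.8) lay in the first intron, which holds 25.7% of the eligible bases. In 10 equal parts of the gene from its 5′ end, densities were between 5.52 and 6.59 peaks per Mb of eligible intron. The median distance to the nearest transcription start was 24.0 kb. Over all chromosomes 1 to 19 the density was 5.84 members per Mb of intron (exact Poisson interval 5.7 to 6.0, over 859 Mb), between 5.10 on the lowest and 6.64 on the highest chromosome. Even-only intronic peaks reached 1.28 per Mb.

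Density followed base composition. The members' windows had a median GC content of 45.7%, against 42.8% in the intronic tiles, and a median of 14.1% of soft-masked bases, which the genome marks as repeats, against 18.6%. When introns were divided into 5 classes of equal size by the GC content of the surrounding 10 kb, the density went from 3.53 members per Mb (3.26 to 3.83) in the lowest class to 4.33, 5.95, 7.06 and 8.30 (7.87 to 8.74) in the highest. The share of members with a run was 24.2% in the lowest class and between 27.3% and 28.3% in the other 4. The part that GC content has in these densities was not tested.

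The members were then counted by gene. Of 18688 protein-coding genes with eligible intron, 3363 held at least 1 member (18.0%, 17.5 to 18.6), which is the background for every list of genes below. A single member was found in 2366 genes, 2 members in 606, 3 in 207, 4 in 91 and 5 or more in 93, of which 8 held at least 10. Since 130 members (2.59%) lay in more than 1 gene, the counts by gene add up to 5167. Genes without a member had a median length of 16.5 kb, those with at least 1 of 84.9 kb, those with at least 5 of 606 kb and those with at least 10 of 1249 kb.

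Peaks per gene followed gene length. Across the 18688 genes, which are not independent replicates and share 1 library, Spearman's rho between the number of members and gene length was 0.465, and Pearson's r between log2 of the number plus 1 and log2 of the length was 0.53. Among the 3363 genes with at least 1 member, rho was 0.499. The share of genes with a member was 2.07% under 10 kb, 8.49% from 10 to 30 kb, 25.2% from 30 to 100 kb and 55.8% from 100 to 300 kb. It was 83.3% of 486 genes from 300 to 1000 kb, and 54 of 55 genes over 1000 kb held at least 1 (98.2%). The mean number per gene went from 0.0209 in the shortest class to 5.51 in the longest.

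**Figure D3:**
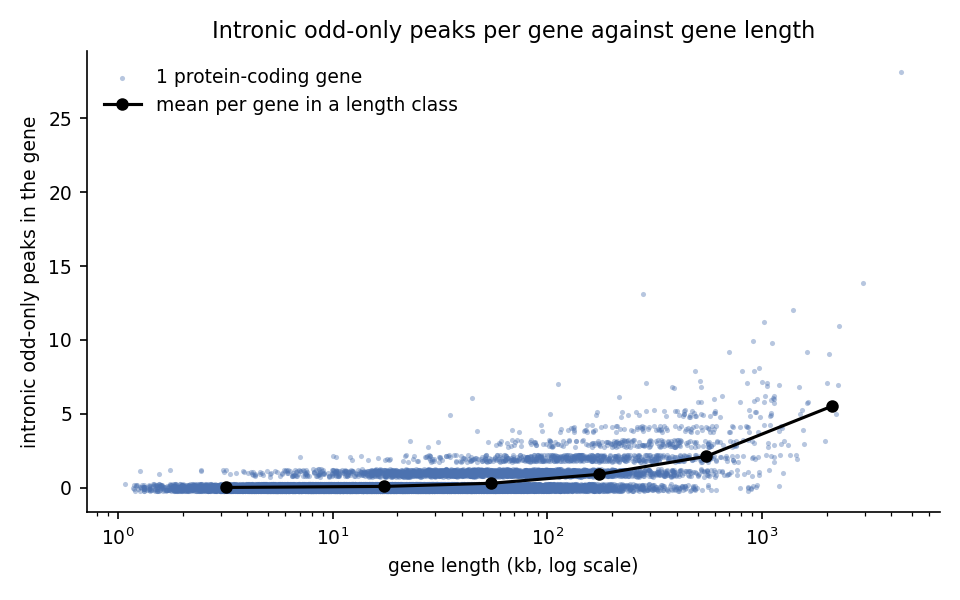
Number of intronic odd-only peaks in each of 18688 protein-coding genes (blue points, shifted slightly at random so that equal counts can be seen) against gene length in kb (log scale). The black line joins the means of 6 length classes, from 0.0209 under 10 kb to 5.51 over 1000 kb.

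Per base, however, genes of 300 kb or more together held fewer members than short ones. Across the 2372 genes of 100 kb or more, taken 1 by 1, Spearman's rho between members per 100 kb of intron and gene length was 0.00797, given as a description across genes, which are not replicates. The density was 8.28 per Mb of intron in genes under 10 kb (6.79 to 10.0, exact Poisson interval), then 7.20, 6.71 and 6.16 in the next 3 classes, 4.60 from 300 to 1000 kb and 4.02 over 1000 kb (3.58 to 4.49). Genes of 300 kb or more had 0.606 times the density of genes under 30 kb (0.552 to 0.666). For members with a run of 12 bases this ratio was 0.682 (0.570 to 0.820), and for members without one 0.578 (0.518 to 0.646). The GC content of the genes moved with length, from 46.9% in the shortest to 40.1% in the longest class. Within the lowest class of local GC, genes under 100 kb had 3.97 members per Mb (3.35 to 4.67) and genes of 300 kb or more 3.24 (2.89 to 3.62). Within the middle class these were 6.75 (6.10 to 7.46) and 4.98 (4.42 to 5.59), and within the highest 8.62 (8.04 to 9.23) and 6.36 (5.40 to 7.44). The lower density of the longest genes was thus present within each of the 5 classes, with overlapping intervals in the lowest and in the next to highest.

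**Figure D4:**
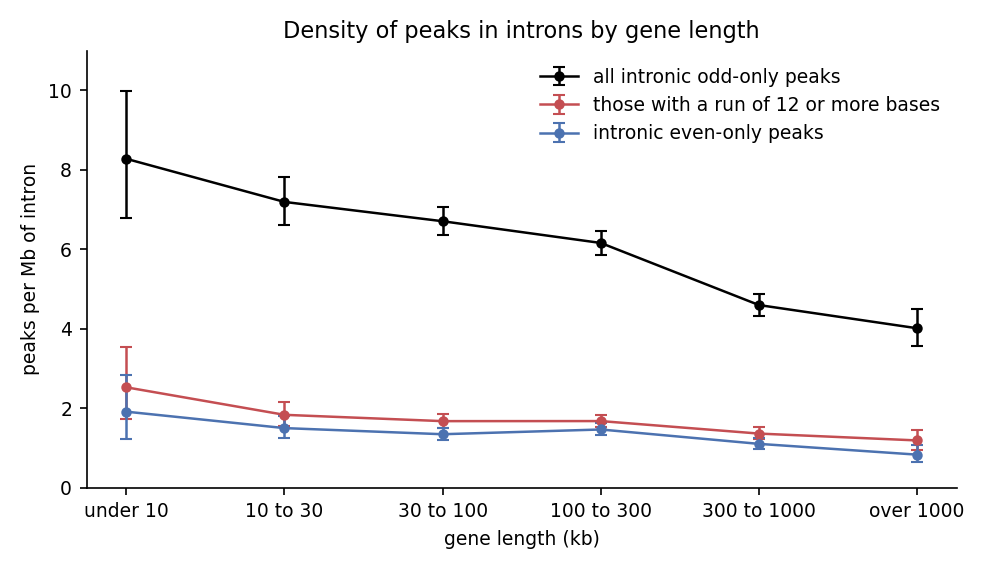
Peaks per Mb of eligible intron by gene length (kb), for all intronic odd-only peaks (black), those with a run of at least 12 bases of an odd probe (red) and intronic even-only peaks (blue), with exact Poisson 95% intervals. The black line goes from 8.28 under 10 kb to 4.02 over 1000 kb.

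**Figure D5:**
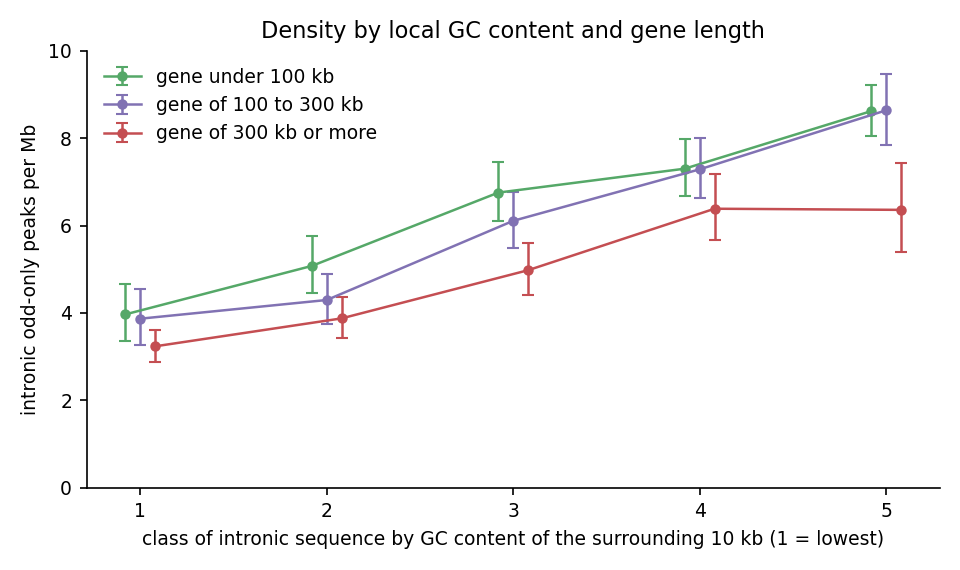
Intronic odd-only peaks per Mb of eligible intron by class of GC content of the surrounding 10 kb (1 is lowest), for genes under 100 kb, of 100 to 300 kb and of 300 kb or more, with exact Poisson 95% intervals. All 3 lines are higher in the highest than in the lowest GC class, from 3.97 to 8.62 for the shortest genes and from 3.24 to 6.36 for the longest.

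The genes with the most members were mostly among the longest. *Gm20388*, a gene model of 4435 kb on chromosome 8 that spans many other genes, held 28 members, 7 of them with a run. *Fgfr2*, which encodes a fibroblast growth factor receptor and is annotated over 2961 kb, held 14, and *Gm37240*, annotated over 1391 kb, held 12. Counts cover the whole annotated span. The members counted for *Fgfr2* were spread from chr7:130277615 to chr7:132673053. How many members of *Fgfr2* and *Gm37240* also lie in other genes inside those spans was not counted. Their counts and ranks describe the annotated spans and are no measure of the receptor gene itself. *Ptprd*, a receptor tyrosine phosphatase gene of 2271 kb, held 11 with pileups from 7 to 20. *Auts2* held 10, while *Fhit* and *Nav2* held 9 each. In density these genes went from 0.493 members per 100 kb of intron in *Ptprd* (0.246 to 0.882, exact Poisson interval) to 1.39 in *Nav2* (0.635 to 2.64), with 0.720 in *Gm20388*.

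*Zfhx3* (1019 kb) also held 11 members, with pileups from 9 to 28, and 5 of them had a run of 12 bases. Its highest member (chr8:108451262-108451848, pileup 28) held no run of 10 bases, and its member with the 17-base run of probe 7 had a pileup of 18. In *Dpp6*, a gene of 910 kb that encodes a subunit of neuronal potassium channels, 7 of 10 members held a run, of 12 to 15 bases. The highest member of *Dpp6* (chr5:27459958-27460291) had a pileup of 22 and a run of 13 bases, and the one with the longest run, of 15 bases (chr5:27522459-27522765), a pileup of 8.

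A different picture was found in 5 genes of chromosome 1, which lie between 85.0 and 88.4 Mb. *C130026I21Rik* held 13 members although it is 278 kb long, and its pileups were between 6 and 12. *Sp140*, which encodes a nuclear body protein of immune cells, held 6 members in 44.7 kb, and *Mroh2a* 5 in 35.3 kb, the highest density among genes with at least 3 members (20.5 per 100 kb of intron, 6.66 to 47.9). *Ugt1a5*, of the glucuronosyltransferases that conjugate bilirubin and drugs in the liver, held 3, and *Trpm8*, a cold-sensing ion channel gene, 7. Together these genes held 34 members, of which none had a run of 12 bases and 3 a run of 10. An even peak lay within 10 kb of 33 of the 34 (97.1%), against 3.99% of all members. The same introns held 36 even-only peaks with pileups from 6 to 23, and 65 odd peaks in these genes overlapped an even peak and so were not members. That the 34 members share no base with an even peak was a condition of the selection and is no property of these genes. Over all members, 43 of the 200 within 10 kb of an even peak held a run (21.5%, 16.4 to 27.7). These 200 include the 33 members of the 5 genes, none of which held a run of 12 bases.

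The other genes of high density held 3 or 4 members each. *Tmem19* had 3 in 22.8 kb, with pileups of 11, 15 and 11, and *Npc1*, which encodes the cholesterol transporter of late endosomes, had 4 in 46.7 kb with pileups from 8 to 14. In both, 1 member held a run of 13 bases. *Ss18l1* (3 members) and *Stx12* (3) had medians of 86.4% and 73.0% soft-masked bases, against a median of 14.7% over the whole peaks of all members, and no run of 12 bases. *Colq*, which encodes the collagen tail of acetylcholinesterase, had 4 members, and its highest (chr14:31571908-31572477) had a pileup of 29 and a run of 14 bases. *Rfc1*, a subunit of the clamp loader of DNA replication, had 4 with pileups from 9 to 23.

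The highest fold enrichment among members was 19.8, at a pileup of 29, and was shared by 40 peaks, so that those named were taken by their order in the list. They lay in *Pard3b*, *Slc35f5*, *R3hdm1*, *Syne1*, *Utp20*, *Tmcc3*, *Abca13*, *Shisa6* and *Prkar2b*. Those in *Syne1* and *Tmcc3* held 12 bases, *Shisa6* 16 and *Prkar2b* 15, while those in *Pard3b* and *Utp20* held 11, *Abca13* 10, and those in *Slc35f5* and *R3hdm1* no run of 10. The even list had its nearest peak 5.82 kb from the one in *Prkar2b* and 998 kb from the one in *Slc35f5*.

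Genes of insulin and leptin signalling and of gluconeogenesis were described next, since *Gm19619* was studied for its part in hepatic glucose output. Of 27 such genes with eligible intron, 10 held a member (37.0%), with 11 members in all (7.15 per Mb of intron, 3.57 to 12.8), beside 18.0% of all genes and a density of 5.84. *Insr*, the insulin receptor gene, held 2, of pileup 7 and 19, neither with a run of 12 bases. *Irs2*, which encodes an adaptor of that receptor, held 1 with a pileup of 20 and 12 bases of probe 9, and an even peak lay 0.357 kb away. *G6pc*, the catalytic subunit of glucose-6-phosphatase, held 1 at chr11:101370496-101370837 with a pileup of 8 and no run, 3094 bp from the nearest transcription start. *Pcx*, which encodes pyruvate carboxylase at the entry to gluconeogenesis, held 1 with a pileup of 12 and no run, 1.07 kb from an even peak. The transcription factor gene *Creb1* held 1 with a pileup of 24 and 14 bases of probe 3, and its co-activator gene *Crebbp* 1 with a pileup of 9 and 12 bases of probe 7. The kinase gene *Jak2* held 1 (pileup 14, 12 bases of probe 1), and *Stat3*, *Gsk3b* and *Pik3cb* 1 each without a run, with pileups of 11, 10 and 7. The other 17 genes of this list held no member. Among them were *Lepr*, the leptin receptor gene, *Foxo1*, a transcription factor gene of insulin signalling, and *Pck1*, a gluconeogenic enzyme gene. Peaks near transcription starts, in exons, shared with the even list or at higher pileup were not counted as members. The paper reports *Gm19619* binding upstream of and along *Lepr*, and at the promoter and locus of *Foxo1*, which was not tested here. Eligible intron was 90.4 kb in *Lepr*, 74.1 kb in *Foxo1* and 2.62 kb in *Pck1*. At 5.84 members per Mb, a lack of members in introns of these lengths was uninformative. The median length of the list was 61.3 kb, in the class in which 25.2% of genes held a member.

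Of 32 lipid genes, 14 (43.8%) held a member, with 17 members in all (10.8 per Mb, 6.30 to 17.3), and their median length of 50.1 kb falls in the class in which 25.2% of genes held one. Only 1 of the 17 members held a run of 12 bases, beside 27.3% of all members. It lay in *Elovl6*, a fatty acid elongase gene, with 12 bases of probe 7 and a pileup of 13. *Cpt1a*, whose product carries fatty acids into mitochondria, held 2 (pileup 9 and 10), *Acacb*, an acetyl-CoA carboxylase gene, 2 (11 and 14), and *Abca1*, a cholesterol efflux pump gene, 2 (19 and 10). The rest held 1 each, namely *Dgat2*, *Acly*, *Srebf2*, *Acsl1*, *Elovl5*, *Lpin2*, *Ppara*, *Lpin1*, *Lipc* and *Acaca*. The interval of the density lies above the 5.84 of all introns but includes the 6.71 per Mb of genes from 30 to 100 kb. The 32 genes were chosen with earlier results of these data known, and the density is given as a description.

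Among 47 nuclear receptor genes, which encode hormone- and lipid-sensing transcription factors, 17 (36.2%) held 35 members (7.48 per Mb, 5.21 to 10.4). These values stand beside 18.0% of all genes and 5.84 per Mb over all introns. The median length of the list was 47.1 kb, in the class in which 25.2% of genes held a member and the density was 6.71. A run was held by 6 of the 35, beside 27.3% of all members. *Rarb*, a retinoic acid receptor gene of 388 kb, held 7, the estrogen-related receptor gene *Esrrg* 5, *Rora* 4 and *Nr2c2* 3. *Ppara*, the receptor that drives fatty acid oxidation, held 1 with a pileup of 8 and no run. *Nr1i2*, the xenobiotic receptor PXR, held 1 with a pileup of 9 and no run, and *Vdr*, the vitamin D receptor gene, 1 with a pileup of 12 and 13 bases of probe 1.

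Genes of cyclic AMP and phospholipase C signalling, through which glucagon and other hormones act on hepatocytes, held 40 members in 20 of 41 genes (48.8%, with 5.19 per Mb, 3.70 to 7.06). Their median length was 121 kb, in the class in which 55.8% of genes held a member. Here 17 of the 40 held a run, beside 27.3% of all members. The windows of 3 of these are shown, for a pair of protein kinase A subunit genes and a phospholipase gene, with that of *Creb1* named above, whose product that kinase activates, and capitals mark the shared bases as before.
*Prkar2b*, probe 1, chr12:31990407-31990461, minus strand: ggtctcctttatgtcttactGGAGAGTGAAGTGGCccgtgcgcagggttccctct
*Prkar2a*, probe 1, chr9:108703190-108703241, plus strand: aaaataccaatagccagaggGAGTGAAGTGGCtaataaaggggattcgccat
*Plcg1*, probe 7, chr2:160736280-160736332, plus strand: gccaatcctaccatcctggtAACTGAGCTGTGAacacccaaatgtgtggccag
*Creb1*, probe 3, chr1:64573518-64573571, minus strand: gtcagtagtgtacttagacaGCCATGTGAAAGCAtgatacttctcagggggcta

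*Prkar2b* and *Prkar2a* encode regulatory subunits of protein kinase A. The peak in *Prkar2b* had a pileup of 29 with its summit 22 bp from the middle of the run, and that in *Prkar2a* a pileup of 24 and a distance of 39.5 bp. The run in *Prkar2a* is the stretch of probe 1 of which 57.5% of sites lay in an odd peak. The peak in *Plcg1* had a pileup of 18 and a distance of 8 bp. The paper reports *Gm19619* binding at *Plcg1*, *Prkar2a* and *Adcy8*, among other loci, and took its pathway genes from overlapping peaks. Members overlap no even peak, so they are not that set, and the reported binding was not tested here. *Adcy8* held no member in 215 kb of eligible intron. *Itpr2*, the main inositol trisphosphate receptor gene of hepatocytes, held 5 members, of pileup 22, 9, 9, 15 and 14, and the highest of them held no run while 3 of the others did. *Adcy5* held 3, of pileup 22, 10 and 8, and *Pde4d*, a phosphodiesterase gene of 1504 kb, held 5, of which 3 had a run.

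Very long genes, most of them of cell adhesion and synapses and best known from neurons, held members in 38 of 40 cases (95%). Among all genes, 83.3% of those from 300 to 1000 kb and 98.2% of those over 1000 kb held a member. The 176 members of the list over 48.5 Mb of intron gave 3.63 per Mb (3.11 to 4.21), below the 5.84 of all introns. All genes of those 2 length classes had 4.60 and 4.02 per Mb. A run was held by 48 of the 176, beside 27.3% of all members. *Lrp1b* held 9, *Ntm* 8 and *Cntnap2* 7, of which 4 had a run, while *Rbfox3* and *Cntnap5a*, of 422 and 903 kb, held none. Among 10 genes that mark hepatocytes, 2 held 1 member each, *Ttr*, the transthyretin gene, with a pileup of 8, and *Hnf4a*, a master regulator of hepatocyte identity, with a pileup of 18 and a run of 10 bases of probe 1. These 10 genes had a median length of 12.8 kb, in the class in which 8.49% of genes held a member, and 18.0% of all genes did.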

How the data were processed

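ChIRP-seq peak lists of the odd and the even probes, 1 library each, were used, and samples were assigned to a probe set by their labels. Per the file headers, the authors ran MACS2 (2.1.1.20160309) on each library without a control, kept 1 read per position, extended it to 200 bp and set the q-value limit at 0.05. The submitters' processing notes name Novoalign (4.02.02), SAMtools (1.9) and mm10. The deposited pileup is an unscaled signal, the number of extended reads at the summit. The deposited fold enrichment is a ratio, for which the authors divided the summit by a background level common to the whole library. The deposited −log10 p-value and −log10 q-value columns had damaged headings and were taken by the order MACS2 writes. For 1 even peak with a damaged start, the start was computed from its end and length.

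Everything else was computed with numpy 2.4.6, scipy 1.17.1 and pandas 2.3.3 under Python 3.11.15, and figures were drawn with matplotlib 3.10.9. Summits were placed by GENCODE vM21 on GRCm38. Runs of at least 10 bases of the probes found whole in the *Gm19619* gene (6 odd, 4 even) were searched on both strands. Tested on simulated data, the search recovered 100% of 1000 planted runs of at least 12 bases in regions of 300 bp and called 0.2% of the other regions. Intervals are at 95%. The members and gene lists were chosen with earlier results of these data known. Named genes are the 10 with most members (ties to the shorter), the 10 densest with at least 3, the hosts of the 10 highest fold enrichments and of the longest runs, and list genes with a member, except 1 gene that is not reported here. Alternatives were stricter −log10 q and fold enrichment, which both act as cuts on pileup here, and other distances, run lengths and length measures. *Socs3*, listed for insulin signalling, had no eligible intron.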

Additional observations from a re-analysis of the deposited data

How the results depend on the processing

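No paired analysis was possible because each probe set has 1 library. With a fold enrichment of at least 10, 1437 members remained, 41.1% of them held a run of an odd probe, 6.57% of genes held a member, rho with gene length was 0.291, median GC content was 45.3%, the median soft-masked share 15.5% (14.7% over whole peaks in the main setting), and the difference in run share from peaks outside genes was −0.71 points, with an interval from −4.29 to 2.86 that includes 0 as the main one does. At this threshold 54 genes of the lists held a member, against 99. With −log10 q of at least 5, the run share was 29.0% and 16.9% of genes held a member. Members of equal pileup have equal fold enrichment and −log10 q. These 2 thresholds are therefore cuts on pileup, which selected the members, at 15 for fold enrichment and at 8 for −log10 q. Their run shares restate the rise of runs with pileup and are not separate checks. With only peaks longer than 200 bp and above a pileup of 5, these were 29.5% and 16.2%. Counting runs of at least 10 bases gave a run share of 56.0% and a difference of 2.67 points from peaks outside genes, now with an interval above 0, and runs of at least 14 gave a share of 5.01%. Requiring the run within 100 bp of the summit gave 21.2%. Measured within 100 bp of the summit, the soft-masked share was 12.4%. With members that hold a run only, a setting chosen after the data were seen, rho was 0.289, 6.34% of genes held a member and the ratio of density between long and short genes was 0.682. The other alternatives stayed within the interval or 1.5 times of the main value. Depth limits the list of peaks: few reads were left after duplicates, and a pileup of 5 was the lowest called, so weaker intronic regions were not detectable.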
